A study of Mus musculus with 36 samples.

Results

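Molecular chaperones of the heat shock and DnaJ families were followed in the mouse brain after chronic treatment with inhibitors of histone deacetylases (HDACs), the enzymes that remove acetyl groups from histones and other proteins. The genes were all those whose symbol begins with Hsp followed by a family letter or digit, or with Dnaja, Dnajb or Dnajc followed by a digit. This rule by name found 67 genes with 120 probes among the 45281 probes of the array, which carried 30869 gene symbols. By role they comprised 13 HSP70 genes, 3 HSP90 genes, 1 HSP110 gene (Hsp105, now named Hsph1), the 2 mitochondrial chaperonins Hspd1 and Hspe1, 7 small heat shock protein genes, 3 DnaJ A, 13 DnaJ B and 24 DnaJ C genes. The remaining 1, Hspbap1, matched the rule only because it is named for a protein that binds HSPB1, and it is not a chaperone.

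RNA had been hybridized to 36 Illumina MouseWG-6 arrays, 1 for each of 3 regions from 12 pools of 2 male C57BL/6J mice. From each pool, the hippocampus (HIP), the nucleus accumbens (NAc) and the medial part of the prefrontal cortex (PFC) were measured, with 3 pools, and so 3 arrays per region, for each treatment. The treatments were vehicle (DMSO, PEG-400 and saline), the benzamide Cpd-60 at 45 mg/kg, the hydroxamic acid SAHA at 25 mg/kg and CI-994, also a benzamide, at 10 mg/kg. All mice, controls included, had received 10 daily intraperitoneal injections and were killed 1 h after the last, and vehicle and Cpd-60 were injected in a larger volume than SAHA and CI-994. Each drug was given at 1 dose and these doses differ, so the drugs are set side by side below and not tested against each other, and all 3 are measured against the same vehicle arrays. The tissue was whole dissected region, in which fewer cells of a type and less RNA per cell cannot be told apart.

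Chaperones hold or refold proteins that have lost their shape. HSP70 proteins bind exposed stretches of a client under the control of DnaJ proteins, which bring the client and trigger ATP hydrolysis, while HSP110 proteins release the nucleotide and HSP90 proteins finish the folding of kinases and steroid hormone receptors. Under stress, heat shock factor 1 (Hsf1) binds inverted repeats called heat shock elements in the promoters of the inducible members, such as Hspa1a, Hspa1b, Dnajb1 and Hspb1. SAHA also inhibits HDAC6, a cytoplasmic enzyme that deacetylates HSP90, which is the reason for looking at these genes under this drug.

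The stretches that match an exact form of the heat shock element, the best known control sequence of the family, in the promoters of these genes are shown first. RefSeq promoter windows of the mouse build GRCm38.p6, reaching from 250 bases before to 50 bases after each annotated start, were available for 54 of the 67 genes. Hspa8, Hspa9, Hsp90aa1 and Hsp90ab1 were among the genes without a window and were not searched. An exact heat shock element of 3 units, GAANNTTCNNGAA or TTCNNGAANNTTC on either strand, was found in 4 of these 54 genes (7.41%) and in 179 of all 27025 genes with a window (0.662%). The 2 forms can overlap and be read from the same bases. The genes were Hspd1 and Hspe1, which share 1 promoter between their opposite starts, Dnajb6 and Hsp105, printed here with the matched bases in capitals.
Hspd1-Hspe1, chr1:55088053-55088082, plus strand: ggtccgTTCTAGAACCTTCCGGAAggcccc
Dnajb6, chr5:29735844-29735872, plus strand: agctccgaGAATCTTCCGGAAcgctagac
Hsp105, chr5:149636280-149636308, minus strand: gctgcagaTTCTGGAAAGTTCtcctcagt

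In the pair Hspd1 and Hspe1 both forms overlapped, from 89 bases before the start of Hspe1 and from 144 bases before 1 annotated start of Hspd1, while the window of its other start held no match. The match of Dnajb6 began 46 or 127 bases before its start, depending on which annotated start was used, and that of Hsp105 lay 16 or 37 bases after its start. The windows of Hspa1a, Hspa1b, Dnajb1, Hspb1 and Hspa2 held no exact match to these letters. Inexact elements and those outside the windows were not searched, so a gene without a match may still carry one. A match of letters does not show that a factor was bound in these tissues.

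Of the 67 genes, 55 had at least 1 probe that was detected (a detection p of at most 0.2, the chance that a background probe is as bright) in all 3 pools of at least 1 treatment in at least 1 region, and 49 had one in every region. The other 12 genes, the neuronal HSP70 relative Hspa12a among them, passed in no region, and nothing is said of their response. The tested members comprised 9 HSP70, 3 HSP90, 1 HSP110, 2 chaperonin, 5 small heat shock, 3 DnaJ A, 11 DnaJ B and 20 DnaJ C genes and Hspbap1. Values are normalized probe intensities on a log2 scale, and since the brightness of a probe also depends on its sequence, levels of different genes are not ranked. Where a gene had several tested probes, the brightest one represents it, and other probes are given beside the results that turn on them. The endoplasmic reticulum HSP70 gene Hspa5 and the co-chaperone gene Dnaja1 were read by dim probes, at 6.53 to 6.68 and 6.47 to 6.81 over the 9 vehicle arrays, so the absence of a measured change in them carries little weight. Hspa1a and Hspa1b in the NAc, and Hspb1 with Cpd-60 in the HIP, were little brighter than Dnaja1, which limits the size of their differences given below.

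Median raw intensities ran from 82.2 to 108.3 and 95th percentiles from 349.9 to 1080, and replicates of a group correlated with r from 0.9703 to 0.9943 over all probes. The dimmest array was pool 1 of Cpd-60 in the NAc, at a 95th percentile of 349.9 against 480.5 to 1079.7 on the other 11 NAc arrays. Pools 2 and 3 of SAHA in the HIP were dimmer in their bright probes, with 95th percentiles of 437.7 and 452 against 593.6 to 850.1 on the other 10 HIP arrays, so the SAHA values in the HIP are also given without them. Each region had been hybridized on its own pair of BeadChips, 6 arrays on each, so region and BeadChip cannot be told apart. Within a region, BeadChip 1 held pools 1 and 2 of vehicle and Cpd-60 and pool 1 of SAHA and CI-994, and BeadChip 2 held the rest. The dissections carried their marker genes: all 5 striatal markers tested were higher in the NAc than in the PFC, the 2 cortical markers tested were lower there, and 4 of 5 hippocampal markers were higher in the HIP than in the PFC under vehicle. All 6 oligodendrocyte markers were higher in the HIP than in the PFC too, and the neuronal marker Snap25 and the cortical marker Neurod6 stayed near background in all 3 regions.

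**Figure D1:**
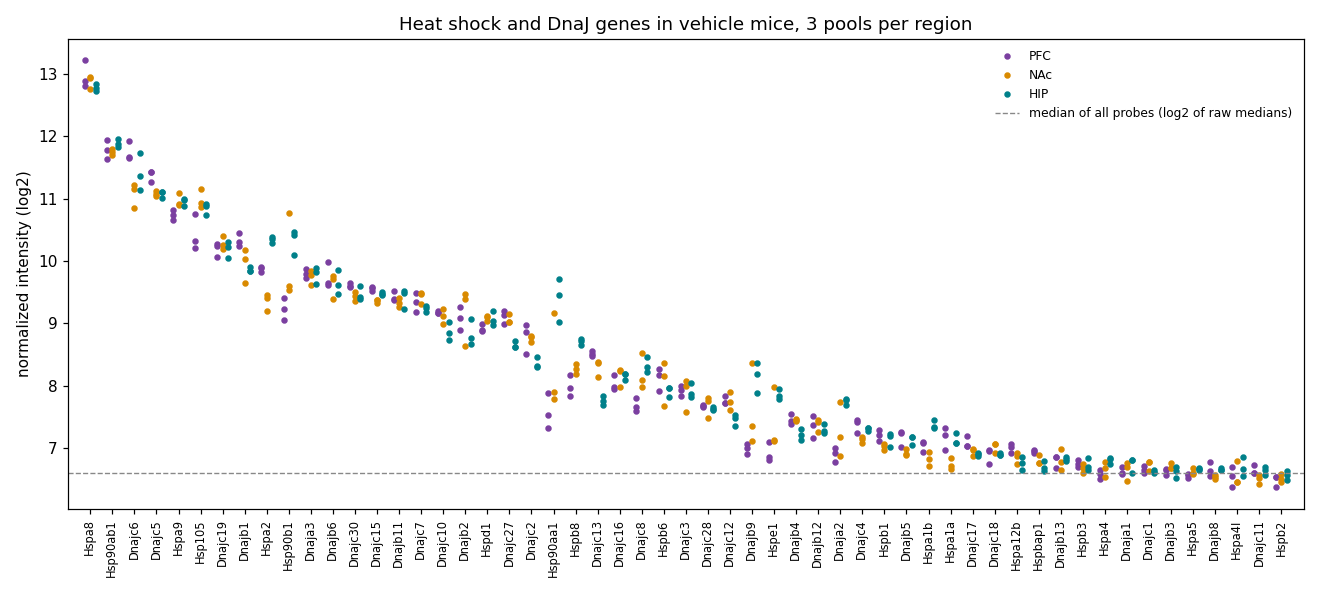
Normalized log2 intensity (vertical axis) of the 55 tested members in the 3 vehicle pools of PFC, NAc and HIP, each point 1 pool. Genes lie along the horizontal axis in falling order of their mean intensity in vehicle. Hsp90aa1, Dnajb9, Hspe1 and Hsp90b1 show wide gaps between PFC and HIP with 1 NAc pool apart from the other NAc pools, while the pools of Hspa8 and Hsp90ab1 lie close together.

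The first question was whether chronic HDAC inhibition changed these genes. In each of the 9 comparisons of a drug with vehicle within a region, no member passed an adjusted p of 0.05 (limma, Benjamini-Hochberg over all probes tested), and neither did any other gene. At an unadjusted p under 0.05 there were 27 of 468 pairs of member and comparison (5.77%), against 6491 of 147573 gene tests (4.4%). Of these 27 values, 17 were higher and 10 lower than vehicle, they fell on 20 genes, and 7 reached 1.2-fold. The median log2 difference of the members lay between -0.02 and 0.04 in all 9 comparisons.

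By comparison, Cpd-60 gave 6 of 50 members at an unadjusted p under 0.05 in the PFC (4 higher, 2 lower), where 5.39% of all genes did so, 2 of 53 in the NAc (1 higher, 1 lower; 5.02% of all genes) and 2 of 53 in the HIP (both lower, 5.52% of all genes). SAHA gave 3 of 50 in the PFC (2 higher, 1 lower, 2.21% of all genes), 1 of 53 in the NAc (higher, 2.2% of all genes) and 4 of 53 in the HIP (2 higher, 2 lower, 9.79% of all genes). SAHA and CI-994 were spread over the BeadChips unlike vehicle, and a fit that held the BeadChip gave SAHA counts of 1, 3 and 1. In that fit 2.34%, 3.19% and 8.16% of all genes reached this p. CI-994 gave 3 of 50 in the PFC (all higher, 4.1% of all genes), none of 53 in the NAc (2.05% of all genes) and 6 of 53 in the HIP (4 higher, 2 lower, 3.23% of all genes). With the BeadChip held, CI-994 counts were 4, 2 and 4, where 4.81%, 3.44% and 3.48% of all genes reached this p. Averaged over the 3 regions of each pool, the counts among 49 members were 4 for Cpd-60 (3 higher, 1 lower, 9.86% of all genes), 1 for SAHA (higher, 2.44%) and 3 for CI-994 (2 higher, 1 lower, 4.3%). No member passed the adjusted threshold in these averages either. Without the BeadChip in the fit, the members' share was above that of all genes in the PFC for each drug. It was also above in the HIP for CI-994, and below in the other 5 comparisons within regions. Among these was SAHA in the HIP, where the most genes reached this p.

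**Figure D2:**
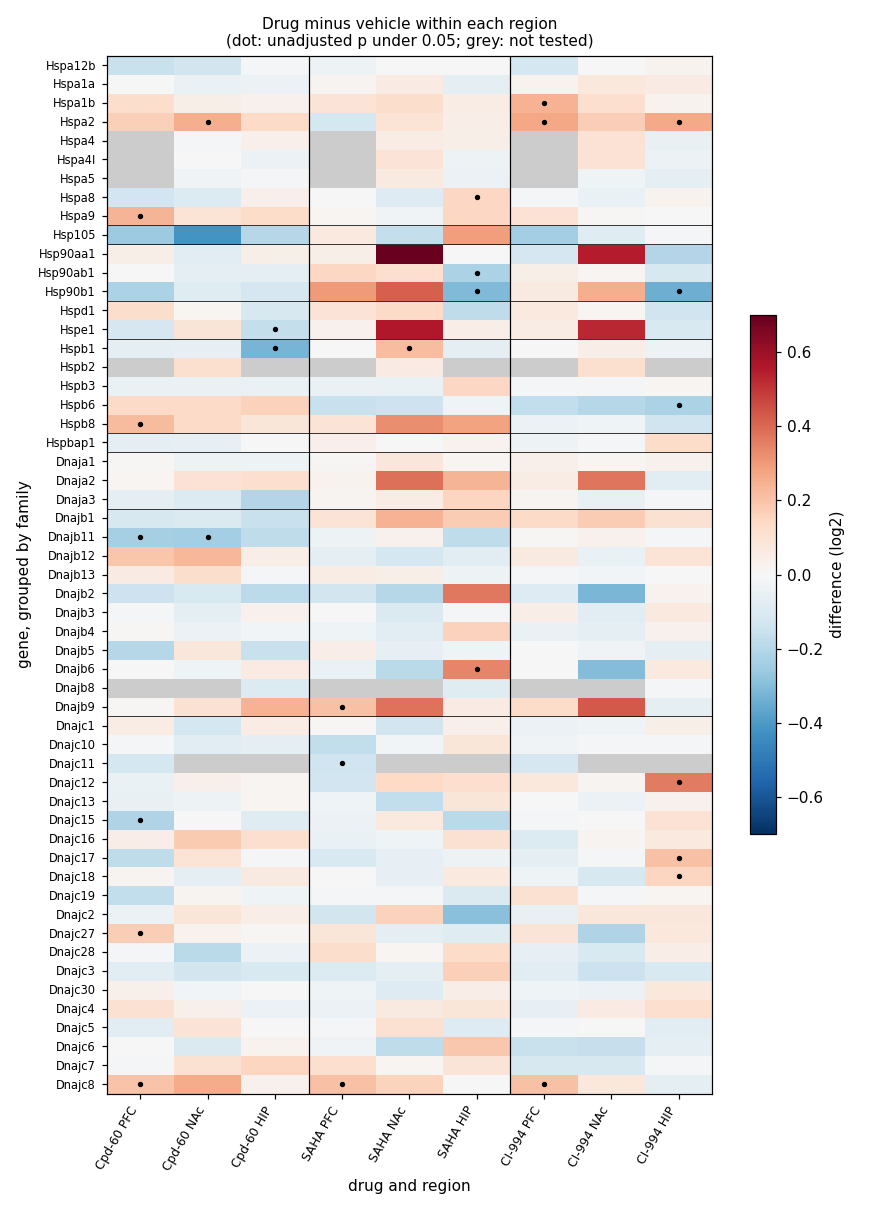
Log2 difference from vehicle (colour scale) of each tested member (rows, grouped by role) in the 9 comparisons of a drug with vehicle within a region (columns), blank where a gene was not tested. Most cells are close to 0, and the strongest colours are in the NAc columns of SAHA and CI-994 at Hsp90aa1 and Hspe1, where the BeadChips differ.

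The HSP70 genes gave 24 pairs of member and region per drug, of which 2 were higher with Cpd-60, 1 with SAHA and 3 with CI-994 at an unadjusted p under 0.05, and 0 lower. Over the 9 comparisons 4.4% of all gene tests reached this p in either direction. Of the HSP70 genes, Hspa2 had the values that recurred most. It encodes an HSP70 best known from male germ cells that is also made in brain. In the PFC its 3 vehicle pools read 9.82, 9.90 and 9.89, those of CI-994 10.34, 10.15 and 9.94, and those of Cpd-60 10.09, 9.99 and 10.03. In the NAc the vehicle pools read 9.41, 9.45 and 9.20, CI-994 9.54, 9.56 and 9.48, and Cpd-60 9.75, 9.48 and 9.61. In the HIP the vehicle pools read 10.39, 10.35 and 10.30, CI-994 10.54, 10.59 and 10.70, and Cpd-60 10.46, 10.40 and 10.57. All pools of both benzamides lay above all vehicle pools of their region, whereas SAHA, at 9.75, 9.77 and 9.72 in the PFC, lay below vehicle there and within or near it elsewhere.

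Averaged over regions, Hspa2 was 0.24 higher on the log2 scale with CI-994 (SE 0.051, 95% interval 0.125 to 0.347, limma p 0.000607, adjusted p 0.573). With Cpd-60 the difference was 0.18 (SE 0.051, interval 0.073 to 0.295, p 0.00366, adjusted p 0.284), and with SAHA 0.01 (SE 0.051, interval -0.105 to 0.118). When the fit held the BeadChip as a block, the CI-994 and Cpd-60 values had adjusted p of 0.199 and 0.142. A second, dimmer Hspa2 probe read 0.24 for CI-994, 0.20 for Cpd-60 and 0.10 for SAHA (SE 0.075 each). In the HIP this probe was higher with SAHA too, by 0.25 (SE 0.092, p 0.0185), where the first probe read 0.05 (SE 0.071). None of these values passed correction over all probes tested. Drug by region, Hspa2 with CI-994 was higher by 0.27 in the PFC (p 0.00767) and 0.26 in the HIP (p 0.00306), and with Cpd-60 by 0.25 in the NAc (p 0.0125). The last value was 0.19 (p 0.0558) without Cpd-60 pool 1, whose NAc array was dim, and 0.18 (limma p 0.0576) without vehicle pool 3.

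The stress-inducible Hspa1a and Hspa1b are nearly identical genes whose probes may read both, so a value is assigned to either with some doubt. Hspa1b in the PFC read 7.10, 6.93 and 7.07 in vehicle and 7.30, 7.31 and 7.23 with CI-994, groups that did not overlap, a difference of 0.25 (SE 0.079, p 0.00863, adjusted p 1). In the NAc and HIP it differed from vehicle by 0.12 (SE 0.072) and 0.02 (SE 0.091) with CI-994. The brighter Hspa1a probe differed from vehicle by no more than 0.08 in either direction in any of the 9 comparisons. The constitutive Hspa8, the main cytosolic HSP70, read 12.79, 12.84 and 12.73 in the HIP vehicle pools and 12.84, 12.97 and 12.99 with SAHA, a difference of 0.15 (SE 0.062, p 0.0354, adjusted p 0.521), with differences between -0.13 and 0.04 in the other 8 comparisons. Its other probes read 0.04 (SE 0.108) and, in the opposite direction, -0.36 (SE 0.203, p 0.105) there, the latter being the probe that follows the BeadChip, as described further on. The mitochondrial Hspa9 in the PFC read 10.66, 10.73 and 10.82 in vehicle and 10.92, 10.88 and 11.14 with Cpd-60, all above vehicle, a difference of 0.24 (SE 0.073, p 0.00609, adjusted p 0.801). Its second probe was 0.18 higher there (SE 0.07).

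Hsp105 encodes the HSP110 that recharges HSP70 with ATP, and its pools were widely spread. With Cpd-60, pools 1 and 2 were below all vehicle pools in every region and pool 3 was not. In the PFC the Cpd-60 pools read 9.67, 9.98 and 10.88 against 10.21, 10.33 and 10.76 in vehicle. In the NAc they read 10.39, 10.34 and 10.98 against 10.94, 10.87 and 11.15, and in the HIP 10.25, 10.46 and 11.24 against 10.74, 10.88 and 10.92. The same pool thus stood apart from the other Cpd-60 pools in 3 dissections. The mean over regions was -0.29 (SE 0.196, p 0.165, adjusted p 0.716). On BeadChip 1, which holds pools 1 and 2 of both groups, the differences were -0.44 (PFC), -0.54 (NAc) and -0.45 (HIP). On BeadChip 2, with 1 pool each, they were 0.12, -0.18 and 0.32. Low pools of Hsp105 occurred with the other drugs too. The lowest array of BeadChip 1 in the NAc, at 10.28, was of SAHA or CI-994. So were those of BeadChip 2 in the PFC and HIP, at 9.96 and 10.33. Within regions, Hsp105 differed from vehicle by -0.24 to -0.01 with CI-994 and by -0.17 to 0.29 with SAHA.

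When Cpd-60 pool 3 was left out, a choice made after its values were seen, the mean over regions of Hsp105 fell by 0.57 (limma adjusted p 0.0359) and that of Dnajb12, a DnaJ protein of the endoplasmic reticulum membrane named for this value, rose by 0.31 (adjusted p 0.0144). Then 356 of 14004 genes (2.54%) passed, against 0 with all pools. The Cpd-60 arrays left were all on BeadChip 1 while vehicle was on both, and both genes differed between the BeadChips of the NAc, Hsp105 higher and Dnajb12 lower on BeadChip 2. With the BeadChip as a block as well, the differences were -0.50 (SE 0.091, adjusted p 0.0151) for Hsp105 and 0.29 (SE 0.046, adjusted p 0.00876) for Dnajb12, and 653 genes (4.66%) passed. For pool 2 of this group the title, which was used, names mice of its own, but the description names the mice of pool 1. If the description is right, the 2 Cpd-60 pools left hold the same mice. These adjusted p would then rest on 1 set of treated mice. All sources give pool 3 the same mice. Whether pool 3 or the other pools are typical of Cpd-60 was not tested.

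The HSP90 genes encode the cytosolic Hsp90aa1 and Hsp90ab1 and the endoplasmic reticulum form Hsp90b1. With SAHA, Hsp90ab1 in the HIP read 11.69, 11.61 and 11.71 against 11.88, 11.96 and 11.83 in vehicle, all 3 pools below vehicle, a difference of -0.22 (SE 0.1, p 0.0461, adjusted p 0.527). Measured against the other regions of the same pools, the SAHA difference of Hsp90ab1 in the HIP was -0.35 (SE 0.108, p 0.00672, adjusted p 0.574). Its 2 other probes read -0.08 (SE 0.088) and -0.18 (SE 0.116) in the HIP. Hsp90b1 in the HIP was 10.46, 10.42 and 10.10 in vehicle, 10.15, 9.79 and 10.10 with SAHA and 10.09, 10.15 and 9.72 with CI-994. These groups overlapped at their edges, with differences of -0.31 (p 0.043, adjusted p 0.527) and -0.34 (p 0.0293, adjusted p 1). Without SAHA pools 2 and 3, which were dim in the HIP, the Hsp90b1 difference was -0.18. That fit rested on 1 SAHA pool, on BeadChip 1 alone. With so few arrays a lost threshold was nearly fixed in advance, so only the differences are given. The remaining HIP values were then -0.20 for Hsp90ab1, 0.05 for Hspa8 and 0.06 for Dnajb6. With all pools and the BeadChip as a block, the SAHA values in the HIP were -0.17 for Hsp90ab1 (p 0.0722), -0.23 for Hsp90b1 (p 0.058), 0.14 for Hspa8 (p 0.0552) and 0.26 for Dnajb6 (p 0.0281).

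Of the chaperonins, Hspd1 with SAHA differed between the HIP and the other regions of its pools by -0.29 (SE 0.12, p 0.0318, adjusted p 0.574), and within the HIP from vehicle by -0.18 (SE 0.115). Its partner Hspe1 differed from vehicle in the HIP with Cpd-60 by -0.17 (SE 0.068, p 0.0311, adjusted p 0.926). For the difference between the HIP and the other regions as a whole, the members at an unadjusted p under 0.05 were 1 of 49 for Cpd-60 (2.02% of all genes), 4 of 49 for SAHA (2 higher, 2 lower, 9.07% of all genes) and 2 of 49 for CI-994 (both higher, 1.8% of all genes).

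Small heat shock proteins hold unfolded clients without using ATP. Hspb1, in the HIP, read 7.19, 7.23 and 7.01 in vehicle and 6.74, 6.79 and 6.94 with Cpd-60, groups that did not overlap, a difference of -0.32 (SE 0.092, p 0.00416, adjusted p 0.838). In the PFC its Cpd-60 pools ran from 6.71 to 7.62, the spread of which covers any difference from vehicle, at 7.11 to 7.29. In the NAc the SAHA pools of Hspb1 lay above all vehicle pools, by 0.21 (SE 0.07, p 0.0112, adjusted p 1). Hspb8, which works with the Bag3 protein in autophagy, was 0.23 higher with SAHA averaged over regions (SE 0.094, p 0.0293, adjusted p 1), but its second probe read 0.07 (SE 0.06). Hspb6 was lower in the CI-994 average, at -0.20 (SE 0.076, p 0.0241, adjusted p 1).

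The DnaJ genes, the largest group, gave 13 of their 294 pairs at an unadjusted p under 0.05 (4.42%, against 4.4% over all genes), and the other members 14 of 174 (8.05%). Dnajc12, a co-chaperone of the aromatic amino acid hydroxylases, read 7.53, 7.36 and 7.48 in the vehicle HIP and 7.77, 7.73 and 7.96 with CI-994, above all vehicle pools. The difference was 0.36 (SE 0.083, p 0.000919, adjusted p 1) within the HIP and 0.32 against the other regions (SE 0.125, p 0.0274, adjusted p 0.999). A second Dnajc12 probe read 0.10 (SE 0.08) and -0.08 (SE 0.118). Dnajb6, which keeps polyglutamine proteins soluble, was 9.48, 9.61 and 9.86 in the vehicle HIP and 9.71, 10.10 and 10.16 with SAHA, a difference of 0.34 (SE 0.133, p 0.0249, adjusted p 0.515), and 0.46 against the other regions (SE 0.19, p 0.0331, adjusted p 0.574). Its other probes read 0.25 (SE 0.134) and 0.25 (SE 0.087) within the HIP, and 0.00 (SE 0.306) and 0.24 (SE 0.125) against the other regions.

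Chosen after their values were seen, Dnajb11 and Dnajc8 recurred in more than 1 comparison. Dnajb11, the endoplasmic reticulum partner of Hspa5, read 9.05, 9.26 and 9.28 with Cpd-60 against 9.51, 9.38 and 9.39 in the PFC. In the NAc it read 9.02, 9.11 and 9.15 against 9.26, 9.32 and 9.41. The 3 Cpd-60 pools thus lay below all vehicle pools in both regions, which come from the same mice, while in the HIP the groups overlapped. The differences were -0.23 (SE 0.093, p 0.0275) and -0.24 (SE 0.087, p 0.0204), and -0.22 averaged over regions (SE 0.072, p 0.0117, adjusted p 0.369). Without Cpd-60 pool 1 they were -0.16 (p 0.128), -0.20 (p 0.0705) and -0.17 (p 0.0535). The PFC value was -0.19 (limma p 0.0996) without vehicle pool 1, and the NAc value -0.195 (limma p 0.0738) without vehicle pool 3. Dnajc8, a spliceosome-associated DnaJ protein, was higher in the PFC by 0.20 with Cpd-60, 0.21 with SAHA and 0.20 with CI-994 (SE 0.08 each), 3 values that share the same vehicle pools of 7.65, 7.60 and 7.80. Its second probe read -0.08, 0.08 and -0.06 there (SE 0.061 each). The heat-inducible Dnajb1, the best known DnaJ partner of Hspa1a, differed from vehicle by -0.16 to 0.25 in the 9 comparisons, with none at an unadjusted p under 0.05. The synaptic vesicle chaperone Dnajc5 and the clathrin uncoating factor Dnajc6, both prominent in nerve terminals, differed by -0.09 to 0.11 and by -0.18 to 0.19, again with none.

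**Figure D3:**
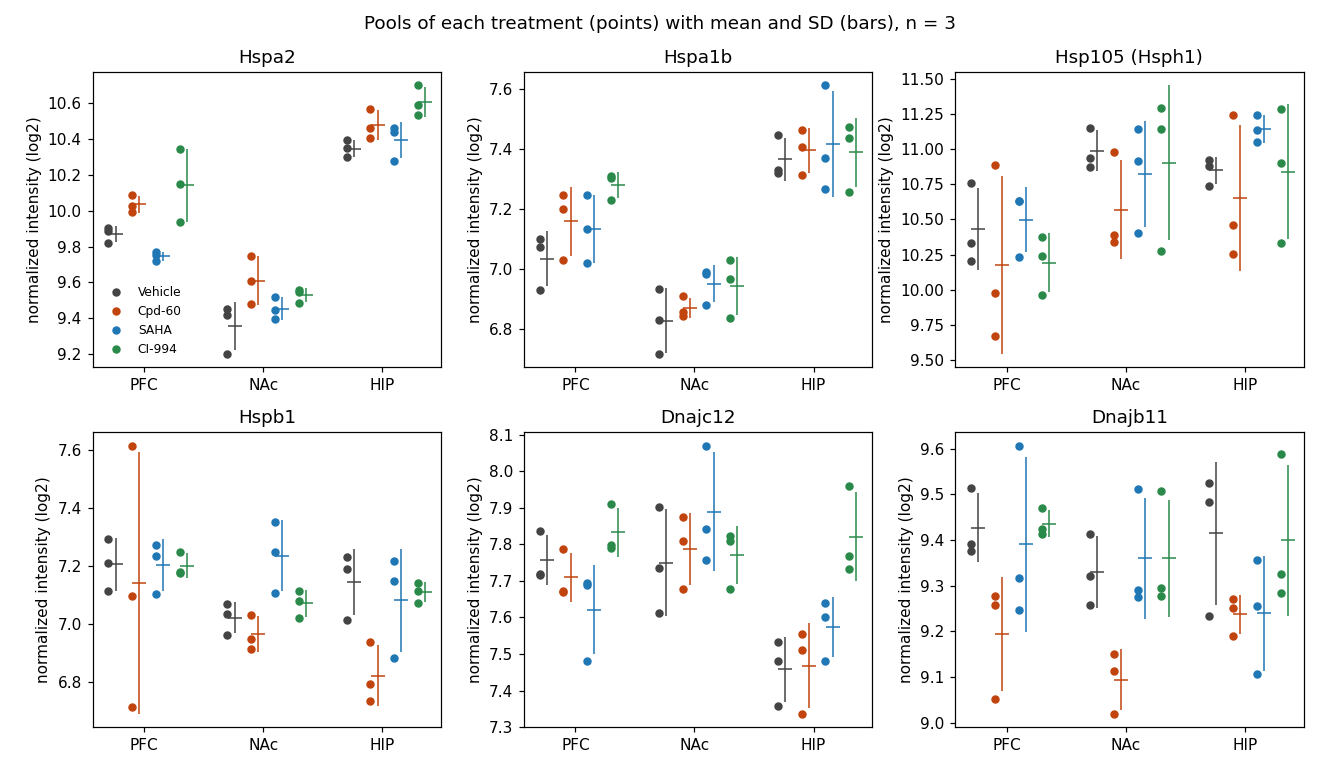
Normalized log2 intensity (vertical axes) of 6 members in each pool (points) by region and treatment, with the mean and SD of 3 pools beside them. Hspa2 shows all Cpd-60 and CI-994 pools above vehicle in each region. Hsp105 shows 1 Cpd-60 pool in each region, at 10.88, 10.98 and 11.24, apart from the other Cpd-60 pools of that region.

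Genes that work with these chaperones gave no adjusted call with any drug. HDAC6, the HSP90 deacetylase, is encoded by Hdac6, whose dim probe differed from vehicle by -0.09 to 0.12 in the 9 comparisons, and 0 of the 5 genes of the list of heat shock factors and HDAC6 reached an unadjusted p under 0.05 there. In the Cpd-60 average over regions, 1 of the 5 was lower, Hsf1 at -0.25 (SE 0.09, p 0.0183, adjusted p 0.414), and 1 higher, Hsf4 at 0.11 (SE 0.045, p 0.0378, adjusted p 0.51). Of 20 co-chaperones of HSP70 and HSP90, 17 were tested in all regions, and in the Cpd-60 average 1 was higher and 2 lower at an unadjusted p under 0.05, where 9.86% of all genes passed. The higher one was Fkbp5, an HSP90 co-chaperone and known glucocorticoid target, at 0.54 in the PFC, 0.34 in the NAc, 0.36 in the HIP and 0.41 on average (SE 0.116, p 0.00409, adjusted p 0.284). The lower ones were its relative Fkbp4 at -0.19 (SE 0.083) and the HSP90 activator Ahsa1 at -0.15 (SE 0.05). With SAHA and CI-994 the Fkbp5 averages were -0.02 and 0.02 (SE 0.116 each).

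Of 18 genes of endoplasmic reticulum chaperones and the unfolded protein response, 15 were tested in all regions, and in the Cpd-60 average 4 were lower and 0 higher at an unadjusted p under 0.05 (9.86% of all genes in either direction), with a list median of -0.05 against -0.01 over all genes. They were the stress-induced Creld2 at -0.23 (SE 0.097) and Sdf2l1 at -0.25 (SE 0.067), the disulfide isomerase Pdia4 at -0.21 (SE 0.078) and the transcription factor Xbp1 at -0.29 (SE 0.108), with adjusted p from 0.277 to 0.493. With SAHA and CI-994 the averages had 1 lower and 0 higher each. Among the 8 subunits of the cytosolic chaperonin TRiC, 5 were tested in all regions, of which Cct3 averaged -0.18 with Cpd-60 (SE 0.07, p 0.0281). The collagen chaperone Serpinh1, 1 of 2 other small chaperones tested, was -0.21 (SE 0.091, p 0.037).

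Marker genes of other cells also had values at an unadjusted p under 0.05. In the average over regions, 1 of 3 blood markers was lower with Cpd-60, 2 of 3 with SAHA and 2 of 3 with CI-994 (medians -0.29, -0.36 and -0.61). Of 6 astrocyte markers 3 were higher with Cpd-60, 2 with SAHA and 1 with CI-994, where 1 was also lower. Over all genes the shares in these averages were 9.86%, 2.44% and 4.3% in either direction. In the HIP with SAHA 3 of 6 oligodendrocyte markers were lower, where 9.79% of all genes passed in either direction. Their summed intensities were 18240 to 19670 against 21370 to 23450 in vehicle. The part of these markers in the differences above was not tested.

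The second question was how the members differ between regions in the vehicle pools, measured within each pool, since the 3 regions came from the same mice. Between HIP and PFC, 22 of 49 members passed an adjusted p of 0.05 (11 higher, 11 lower in the HIP), where 34.1% of all genes did. Between NAc and PFC 6 of 49 passed (1 higher, 5 lower in the NAc, 16.1% of all genes), and between HIP and NAc 3 of 52 (all higher in the HIP, 11.2% of all genes).

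The 3 members that differed between HIP and NAc were all HSP70 genes, Hspa2, Hspa1b and Hspa1a. Hspa2 was in the order HIP, PFC, NAc, with vehicle means of 10.35, 9.87 and 9.36 and no overlap between any of the groups. The difference between HIP and NAc was 0.99 (SE 0.073, adjusted p 1.01e-05), with 0.98, 0.90 and 1.10 in the 3 pools. Those between HIP and PFC and between NAc and PFC were 0.48 (SE 0.088, adjusted p 0.000681) and -0.51 (SE 0.079, adjusted p 0.00102). The second Hspa2 probe gave 0.65, 0.21 and -0.44, each past the adjusted threshold.

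Hspa1b followed the same order, at 7.32, 7.33 and 7.45 in the HIP, 7.10, 6.93 and 7.07 in the PFC and 6.93, 6.72 and 6.83 in the NAc. The HIP pools were clear of the rest, while PFC and NAc met at 6.93. Its differences were 0.54 (SE 0.076) from the NAc, 0.33 (SE 0.078) from the PFC, and -0.21 (SE 0.063) for NAc against PFC, with adjusted p of 0.000925, 0.00395 and 0.0461. The last call was kept in 2 of the 12 fits that left out 1 pool, without Cpd-60 pool 1 or 3, and its adjusted p reached 0.181 without vehicle pool 3. Hspa1a was lowest in the NAc, at 6.72, 6.84 and 6.66 against 7.33, 7.21 and 6.96 in the PFC and 7.24, 7.08 and 7.08 in the HIP, a difference of -0.43 from the PFC (SE 0.111, adjusted p 0.023), and of 0.39 between HIP and NAc (SE 0.086, adjusted p 0.0128). Without vehicle pools 1, 2 or 3 the first had adjusted p of 0.166, 0.0872 and 0.0514, and without vehicle pool 1 or 3 the other had 0.119 and 0.0696. Its second probe differed by -0.12 (SE 0.064) and 0.14 (SE 0.06), and PFC and HIP did not differ beyond their spread, at -0.03.

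Among the other members, Dnajb1 was highest in the PFC, at 10.45, 10.31 and 10.24 against 9.91, 9.83 and 9.85 in the HIP (-0.47, SE 0.118, adjusted p 0.00645) and 10.17, 10.04 and 9.65 in the NAc (-0.38, SE 0.097, adjusted p 0.0218). Without vehicle pool 1 the first had an adjusted p of 0.0539, and without vehicle pools 1, 2 or 3 the other had 0.0561, 0.0601 and 0.166. Dnajc6 was lowest in the NAc, at 11.22, 11.16 and 10.86 against 11.68, 11.66 and 11.93 in the PFC, a difference of -0.68 (SE 0.136, adjusted p 0.00577), where its second probe read -0.38 (SE 0.228), and of -0.48 (adjusted p 0.0549) without vehicle pool 3. Dnajc5 was lower in the HIP than in the PFC, at -0.30 (SE 0.064, adjusted p 0.00172), and so was its second probe, at -0.36 (SE 0.113). Bag3, the partner of Hspb8, was 1 of 4 co-chaperones higher in the HIP than in the PFC, with another 4 lower, among 17 tested (34.1% of all genes).

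Larger differences between HIP and PFC were seen in Hsp90aa1, at 1.82 (SE 0.243, adjusted p 4.49e-05), in Dnajb9, an endoplasmic reticulum DnaJ protein, at 1.15 (SE 0.116, adjusted p 4.13e-06), in Hsp90b1 at 1.09 (SE 0.172), Hspe1 at 0.94 (SE 0.095) and, named after its values were seen, Dnaja2 at 0.84 (SE 0.114). The largest lower value was that of Dnajc13, an endosomal DnaJ protein, at -0.76 (SE 0.097, adjusted p 3.06e-05), followed by Dnajc27 at -0.46 (SE 0.097, adjusted p 0.00195). The second, dim Hsp90aa1 probe gave 0.30 (SE 0.083, adjusted p 0.0112). By their brightest probes, all of these genes except Dnajc27 also differed between the 2 BeadChips of a single region, the NAc.

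Within the NAc, with treatment in the model, 13 of 53 members differed between the BeadChips at an adjusted p under 0.05 (10 higher and 3 lower on BeadChip 2), where 21.8% of all genes did. In the PFC 0 of 50 members did (0.138% of all genes) and in the HIP 1 of 53 (1.18% of all genes), namely Hsp90aa1, at -0.56 (SE 0.097, adjusted p 0.0173). In the NAc Hsp90aa1 read 7.37 to 7.90 on the 6 arrays of BeadChip 1 and 9.16 to 9.80 on those of BeadChip 2, a difference of 1.86 (SE 0.117, adjusted p 9.38e-07) with no overlap. This was as large as its difference between HIP and PFC. All 4 treatments were on both BeadChips, and no array of BeadChip 1 reached the level of any array of BeadChip 2.

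The same held for Dnajb9 (7.08 to 7.35 against 8.36 to 8.72, a difference of 1.31), Hspe1 (7.01 to 7.24 against 7.98 to 8.48, 1.10), Hsp90b1 (9.32 to 9.85 against 10.37 to 10.95, 1.06) and Dnaja2 (6.88 to 7.18 against 7.69 to 8.19, 0.90). Hsp105 differed by 0.60, with ranges that met, 10.28 to 10.93 and 10.91 to 11.29. Dnajc8 and Hspb8 were higher by 0.43 and 0.40, and Dnajc13, Dnajb12 and Dnajc12 were lower, at -0.42, -0.32 and -0.18. The second Dnajc12 probe was higher, at 0.33. Of the 11 members higher in the HIP than in the PFC, 8 were also higher on BeadChip 2 of the NAc. The other 3 were Hspa2, Hspa1b and Hspa9. Of the 11 lower ones, 2 were also called between the NAc BeadChips. There 21.8% of all genes were called. This overlap was not counted over all genes called between regions, so it is not read as particular to the members.

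Of the 6 members called between NAc and PFC, only Dnajc8 was called between the NAc BeadChips. None of the 3 called between HIP and NAc was, where 21.8% of all genes were. The regional fits held no BeadChip term, so a probe shifted between the NAc BeadChips varies more between pools and is harder to call. Hsp90aa1 differed between HIP and NAc by 1.56, 1.92 and -0.14 in the 3 vehicle pools and was not called. The small overlap is therefore not read as a trait of the called genes. Hspa2, Hspa1a, Hspa1b and Dnajb1 differed between these BeadChips by -0.06, -0.03, 0.02 and -0.02 (SE 0.061, 0.072, 0.055 and 0.112). The 95% intervals of these BeadChip differences were -0.20 to 0.07, -0.19 to 0.13, -0.10 to 0.14 and -0.27 to 0.23. The dimmer second probe of Hspa2 did differ, by -0.18 (SE 0.055).

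**Figure D4:**
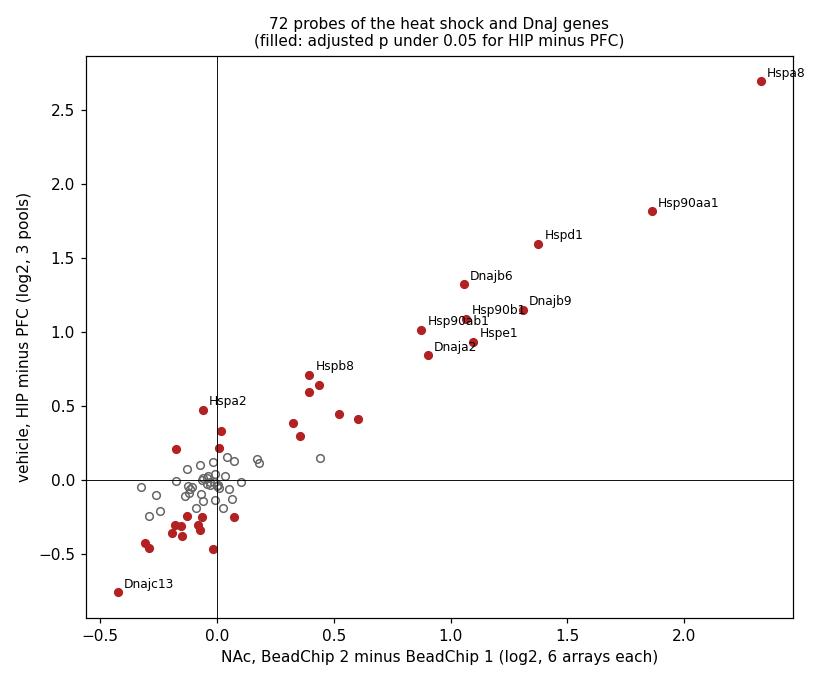
Each point is 1 of 72 member probes, with the log2 difference between the BeadChips within the NAc (horizontal axis, BeadChip 2 minus 1) and the log2 difference between HIP and PFC in vehicle (vertical axis). Probes with the largest differences on 1 axis, among them 1 of Hspa8 (2.33 and 2.70), Hsp90aa1 (1.86 and 1.82) and Hspd1 (1.38 and 1.60), have them on the other, while Hspa2 and Dnajb1 lie near 0 on the horizontal axis only.

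Different probes of 1 gene went apart with the BeadChip. Hspa8 has 3 probes, of which the 2 bright ones differed between HIP and PFC by -0.18 (SE 0.081) and -0.13 (SE 0.107), neither past the adjusted threshold, while the third read 8.86, 8.76 and 9.15 in the vehicle PFC and 11.69, 11.89 and 11.29 in the vehicle HIP, a difference of 2.70 (SE 0.262, adjusted p 2.87e-06). The third probe minus the first was -3.62 to -3.17 on BeadChip 1 of the NAc and -1.32 to -0.89 on BeadChip 2, for the same region and the same treatments. This gap was -4.46 to -3.13 on the 12 PFC arrays and -1.98 to -0.95 on the 12 HIP arrays. The gap thus lay near that of the PFC on BeadChip 1 of the NAc and near that of the HIP on BeadChip 2.

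The second probe of Hspd1 read 8.26 to 8.67 on BeadChip 1 of the NAc and 9.61 to 9.99 on BeadChip 2 (a difference of 1.38, adjusted p 7.22e-07), and was 1.60 higher in the HIP than in the PFC, where the first probe was 0.15 higher (SE 0.078, adjusted p 0.172). The third probe of Hsp90ab1 did likewise, at 0.87 between BeadChips and 1.02 between HIP and PFC, against 0.10 for the first. The second probe of Dnajb6, at 1.06 and 1.32, stood against -0.10 for the first between HIP and PFC. Of the 80 member probes tested in the NAc, 27 were called between BeadChips (22 higher, 5 lower on BeadChip 2), where 22.9% of all probes tested were, and 19 were called without overlap, against 13.1% of all probes. Of the 19 genes with at least 2 probes tested in all regions, 7 had probes whose differences between HIP and PFC spanned 0.5 or more, and 1, Dnajc12, had probes called in opposite directions, at -0.30 and 0.39.

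**Figure D5:**
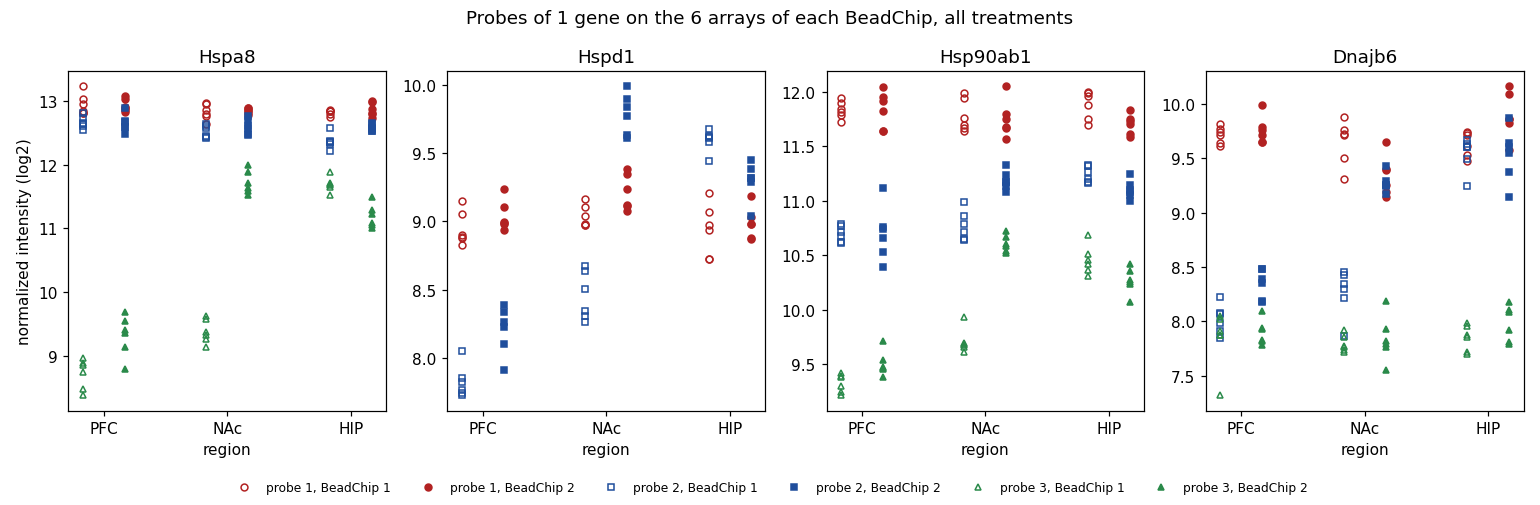
Normalized log2 intensity (vertical axes) of the 3 probes of Hspa8, 2 of Hspd1, 3 of Hsp90ab1 and 3 of Dnajb6 on each of the 6 arrays of BeadChip 1 (open) and BeadChip 2 (filled) per region, all treatments together. Probe 3 of Hspa8 sits at 9.15 to 9.63 on BeadChip 1 of the NAc and at 11.53 to 11.99 on BeadChip 2, while its other probes stay together.

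The BeadChips also bear on the drug values in the NAc, where vehicle and Cpd-60 had 2 of 3 pools on BeadChip 1 and SAHA and CI-994 had 1 of 3. The largest differences from vehicle of all members were there, Hsp90aa1 at 0.69 with SAHA and 0.55 with CI-994 (SE 0.78 each) and Hspe1 at 0.56 and 0.53 (SE 0.461 each), none at an unadjusted p under 0.05. After the BeadChip was added as a block they were 0.07 and -0.07 (SE 0.161 each) for Hsp90aa1 and 0.19 and 0.16 (SE 0.102 each) for Hspe1. With the block, no member passed the adjusted threshold in any of the 15 drug comparisons, while in the averages over regions 28 of all genes did for Cpd-60 and 3 for CI-994.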

How the data were processed

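Per the labels, biotin-labelled cRNA of 36 samples, from 3 regions of 12 pools of mice, was hybridized to Illumina MouseWG-6 BeadChips. The deposited table holds, for each array, the intensity of 45281 probes without normalization and a detection p-value, both as the authors' scanner software gave them. The columns of all 36 samples were used, and 0 columns belonged to other samples. In each region 1 Cpd-60 pool is described with other mice than its title, and the title was used. In R 4.3.3, intensities under 1 were set to 1, and log2 values were quantile normalized over all arrays. Within a region, only probes were tested that had a detection p of 0.2 or less on all 3 arrays of some treatment, which is how the authors' presence rule was read here. limma 3.58.1 was fitted within each region, on pool means over regions and on differences between regions within a pool. The p-values were adjusted by Benjamini-Hochberg over all probes tested, before 1 probe was taken for each gene. Scripts were tested on simulated data. The BeadChip comparison within regions was added after seeing the data. Members, gene lists and the named genes (known family members, plus the 3 largest higher and lower values past p 0.05 and 1.2-fold in each comparison) were chosen with earlier results of these data known. Where a gene is named outside that rule the text says so or names it with its list. Of the 67 symbols, 66 matched a current RefSeq symbol and 1 a synonym. By their titles the pools hold different mice, and the number of arrays limits the precision. Probe sequences and positions were not used here.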

Additional observations from a re-analysis of the deposited data

How the results depend on the processing

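No drug comparison had a member past the adjusted threshold under any alternative, except that without Cpd-60 pool 3 the average over regions had 2 (range 0 to 2 over pools left out), and 2 with the BeadChip as a block as well, a pair of choices made after seeing the data. Summed over regions, counts at an unadjusted p under 0.05 moved more. For Cpd-60, 10 became 3 with neqc normalization and 2 by the methods' analysis of variance with Tukey's HSD. It became 6 when every tested probe of a gene had to pass, a rule chosen after seeing the data. The count became 14 in the fit with a BeadChip block and 25 in that fit without pool 3. With the block, Cpd-60 gave 5.8%, 8.63% and 6.55% of all genes in the PFC, NAc and HIP. Without it these shares were 5.39%, 5.02% and 5.52%. For the other alternatives no share of all genes is given, so their counts are not read as traits of the members. For SAHA, 8 became 5 at a detection p of at most 0.01, 5 with the BeadChip as a block, 4 by Tukey's HSD and 4 with every probe. Pool numbers were not used to pair treatments, since pools of different treatments hold different mice. Same-numbered arrays did deviate together more often, with r over 0.1 in 32 of 54 pairs (median 0.229). Of differently numbered pairs 36 of 108 did so (median -0.138). Within a region, pools numbered 1 shared a BeadChip in all treatments, and so did those numbered 3. Pool number and BeadChip were not told apart here. With the number as a replicate block SAHA had 13, and 40 of 42 named drug values kept an unadjusted p under 0.05. Leaving out 1 pool at a time gave 6 to 19 for Cpd-60 (19 without Cpd-60 pool 3, 6 without its pool 1 or vehicle pool 1), 2 to 11 for SAHA (2 without vehicle pool 2, 4 without vehicle pool 1, 5 and 3 without SAHA pools 2 and 3) and 5 to 10 for CI-994 (5 without vehicle pool 2, 9 with all). Between regions the ranges were 13 to 23 for HIP and PFC (14 and 13 without vehicle pools 1 and 2, 22 with all), 1 to 8 for NAc and PFC (3, 2 and 1 without vehicle pools 1, 2 and 3, and 3 with every probe, 6 with all) and 2 to 4 for HIP and NAc (6 when the spread was taken from the vehicle pools alone). Of 781 recomputed drug values 175 lost an unadjusted p under 0.05 and 0 changed sign, and of 368 regional ones 26 lost and 8 gained the threshold. The 1 that changed sign was Hspa1a between HIP and PFC, at 0.017 without vehicle pool 2, -0.107 without vehicle pool 3 and -0.03 with all pools, differences within its spread. The causes were not tested. Signal near background limits Hspa5, Dnaja1, Hspa4 and Hspa4l, and also Hspa1a and Hspa1b in the NAc and Hspb1 with Cpd-60 in the HIP.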
